A study of Mus musculus with 8 samples.

Results

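The RUNX transcription factors and the proteins that work directly with them were examined in mouse embryos that lacked Runx1. The genes considered were the RUNX genes Runx1, Runx2 and Runx3, their DNA-binding partner Cbfb, and the corepressor genes Runx1t1, Cbfa2t2 and Cbfa2t3. A probe set was included when the platform annotation mapped it to one of these symbols alone, which gave 22 of the 45037 probe sets tested. Runx1 had 6 probe sets, Runx1t1 had 6, Cbfa2t3 had 4, Cbfa2t2 had 3, Runx3 had 2 and Cbfb had 1. No probe set was assigned to Runx2 alone in the annotation used, so its RNA was not analysed here and 6 of the 7 genes were measured. RNA from whole embryo propers was hybridised to 8 Affymetrix mouse genome arrays, 2 for each of 4 groups: Runx1 knockout at embryonic day 8.5 (E8.5), wild type at E8.5, Runx1 knockout at embryonic day 12 (E12) and wild type at E12. All mice were on a BALB/c background, the knockout removes Runx1 in every tissue, and neither the construction of the allele nor the number of embryos behind an array is stated in what was read here. In embryos of this genotype definitive blood cells do not form, so that a whole-embryo measurement mixes the loss of a cell type with changes in the cells that remain. In such bulk samples fewer cells of a type and less RNA per cell cannot be told apart.

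Every RUNX protein binds DNA through its Runt domain, at sites with the core TGTGGT or TGCGGT. CBFB, encoded by Cbfb, is the common partner of the family and makes no contact with DNA, and RUNX proteins bound to it hold their sites more tightly and last longer in the cell. RUNX1 is needed for definitive blood cells, RUNX2 for bone, and RUNX3 for a class of sensory neurons and for several lymphocyte lineages. The CBFA2T proteins (RUNX1T1, also called ETO, with CBFA2T2 and CBFA2T3) bring histone deacetylases and other corepressors to DNA-bound factors, and in human leukaemia chromosome translocations fuse RUNX1 to RUNX1T1 or to CBFA2T3. Genes of the RUNX family are transcribed from a distal and a proximal promoter.

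Promoter windows from RefSeq, running from 250 bases before to 50 bases after an annotated start (build GRCm38.p6), were available for 6 of the 7 genes and numbered 9. They are shown because letters of the RUNX binding core stand in the promoters of the RUNX genes. The motifs TGTGGT and TGCGGT were sought on both strands. In the more upstream window of Runx1 and of Runx3, and in the one Runx2 window, a pair of TGTGGT motifs stood on the strand opposite to the gene with 2 bases between them. The stretches of 30 bases around the pairs read as follows, 5′ to 3′ on the strand of the gene, with both motifs in capitals (ACCACA is TGTGGT read on the other strand).
Runx1, chr16:92826025-92826054, minus strand: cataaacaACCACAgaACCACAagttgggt
Runx2, chr17:44814583-44814612, minus strand: cacaaacaACCACAgaACCACAagTGCGGT
Runx3, chr4:135120503-135120532, plus strand: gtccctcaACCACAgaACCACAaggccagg
In the Runx2 stretch the last capitals are a TGCGGT on the strand of the gene. The motif pair began 28 bases after the annotated start of Runx1, 23 bases after that of Runx2 and 134 bases before that of Runx3. Of all 32851 promoter windows in the table, 16.8% held a TGTGGT, 1.81% held 2 or more, 6.45% held a TGCGGT, and 7 windows (0.0213%) held a pair on the same strand with this spacing, 3 of them being those of the RUNX genes. The pair was noticed on inspection of the windows. The Runx2 window held a further TGTGGT 80 bases before the start. The more downstream windows of Runx1 (chr16:92697280-92697579) and Runx3 (chr4:135152295-135152594), the window of Cbfb (chr8:105170424-105170723), that of Cbfa2t2 (chr2:154436234-154436533) and one of the 2 windows of Cbfa2t3 (chr8:122678126-122678425) held neither motif. The other Cbfa2t3 window (chr8:122699060-122699359) held a TGCGGT 124 bases before the start. These matches describe letters in the windows, and no binding was measured.

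The values are log2 intensities, on which a difference of 1 is a doubling. The E8.5 arrays had medians of 4.96 to 5.01 and upper ends (99th percentile) of 12.2 to 12.3, while the E12 arrays had medians of 5.16 to 5.20 and upper ends of 10.5 to 11.1. Whether the arrays of both stages were normalized together is not stated, which bears on every comparison of stages. Markers of other tissues differed among arrays. E8.5 wild type replicate 1 stood apart, with a mean of 8.64 over 6 trophoblast markers where the remaining E8.5 arrays had 5.52 to 6.03, and a mean of 5.18 over 10 heart markers where they had 6.64 to 7.36. E8.5 wild type replicate 2 had a mean of 9.32 over 9 red-cell markers, and the remaining E8.5 arrays had 7.02 to 7.23. Although the labels name the embryo proper, the mean of 9 yolk sac endoderm markers was 11.6 to 12.7 in the E8.5 arrays, against 6.89 to 7.30 at E12. The part of these tissues in the results was not tested. Megakaryocyte and platelet markers (9 genes) had means of 4.87 and 4.86 in E12 knockout embryos against 7.13 and 7.01 in E12 wild-type embryos.

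Whether the RUNX family and its cofactors changed when Runx1 was disrupted was asked first, at each stage. No member probe set differed between knockout and wild-type embryos at a limma adjusted p below 0.05 at E8.5, where 0% of all probe sets were called, or at E12, where 0.0133% were called. At an unadjusted p below 0.05 the counts were 1 of 22 at E8.5 (4.73% of all probe sets) and 0 of 22 at E12 (1.58%). The difference averaged over both stages gave no called member (0.00222% of all probe sets called), nor did the difference of the knockout effect between stages (0.00444% called), with 1 member each at an unadjusted p below 0.05 (4.36% and 1.87% of all probe sets). With an absolute moderated t above 3, a threshold with no correction for the number of tests that the study's methods name, 1 member passed at E8.5 (2.06% of all probe sets), 0 at E12 (0.655%), 1 for the average (1.79%) and 1 for the difference between stages (0.688%), and all 3 passes came from a single Runx1 probe set described below. The knockout arrays lay wholly above or below the wild-type arrays for 5 of 22 members at E8.5 (29.2% of all probe sets) and for 4 of 22 at E12 (28.4%). The difference was positive for 17 of 22 at E8.5 (46.9% of all probe sets) and for 14 of 22 at E12 (52.5%). Single arrays moved these counts: at E8.5 the count was 10 without knockout replicate 2 and 12 without wild type replicate 1, and at E12 it was 7 without wild type replicate 1 and 10 without replicate 2. The 95% interval of the difference stayed between -1 and 1 for 11 of 22 probe sets at E8.5 and for 16 of 22 at E12. For the remaining ones a doubling or halving in one direction or the other was not outside the interval, and the half-width of the interval had a median of 0.61 and reached 2.23 for a probe set of Runx1t1.

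**Figure D1:**
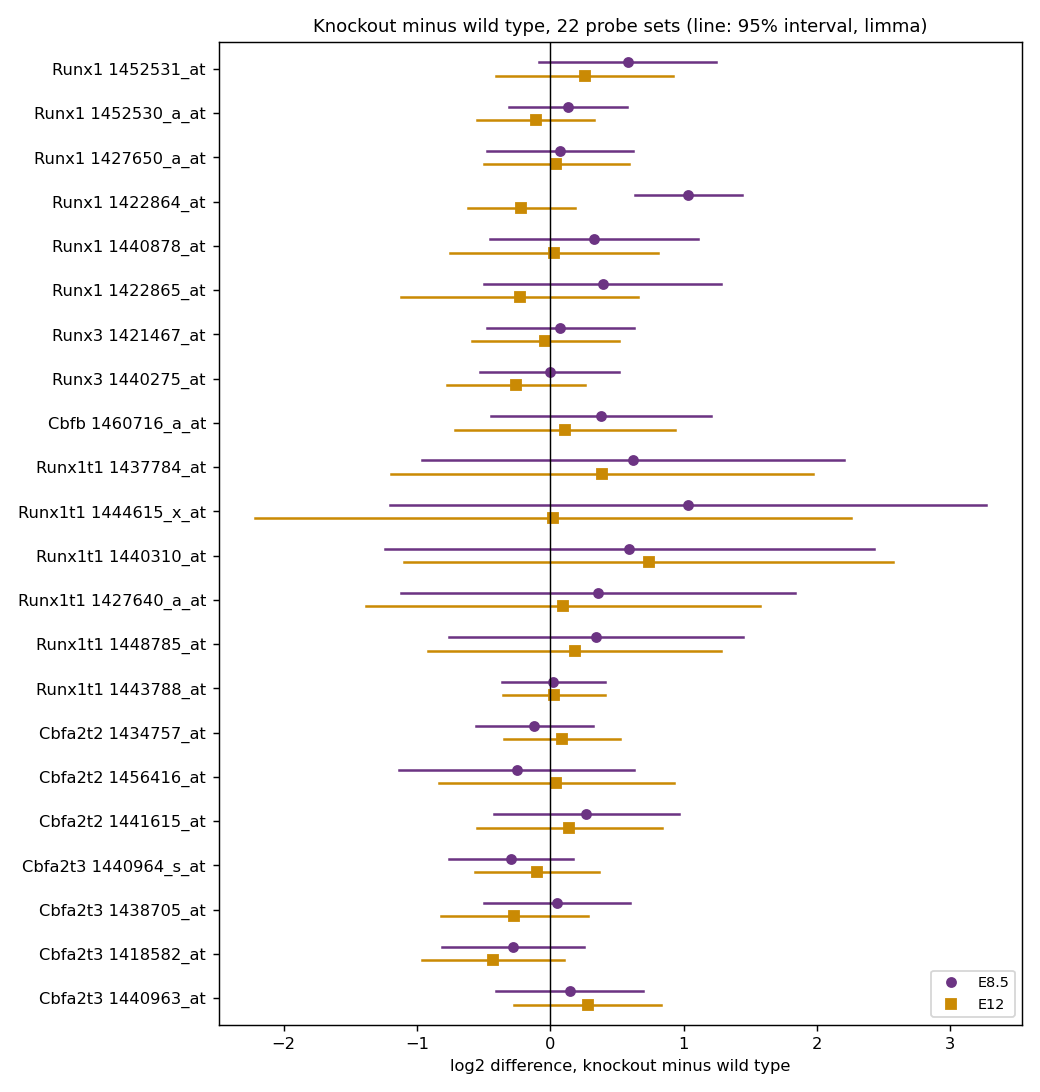
Difference between knockout and wild-type embryos in log2 intensity (x axis) for each of the 22 probe sets (y axis), with circles for E8.5, squares for E12 and lines for the 95% interval from limma. The interval of Runx1 1422864_at at E8.5, 0.63 to 1.43, is the one that does not include 0.

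No probe set of the disrupted gene, Runx1, passed the test for a lower level in knockout embryos. Its brightest probe set, 1452531_at, read 6.41 and 6.86 in E8.5 knockout embryos against 6.16 and 5.95 in E8.5 wild-type embryos, and 7.10 and 6.86 in E12 knockout embryos against 7.06 and 6.39 in E12 wild-type embryos. Both knockout arrays were above both wild-type arrays at E8.5, and the groups overlapped at E12. The difference was 0.58 at E8.5 (95% interval -0.08 to 1.24) and 0.26 at E12 (-0.41 to 0.92). All 6 Runx1 probe sets had a positive difference at E8.5, from 0.07 to 1.03, but 3 of 6 without knockout replicate 2, and 3 of 6 had one at E12, or 1 of 6 without E12 wild type replicate 2. The position of the probes within the disrupted gene was not available, so that their signal is no check of the genotype.

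A second Runx1 probe set, 1422864_at, had the highest absolute t among the members at E8.5. It read 6.09 and 6.33 in E8.5 knockout embryos against 5.26 and 5.09 in E8.5 wild-type embryos, and 4.09 and 4.27 in E12 knockout embryos against 4.41 and 4.39 in E12 wild-type embryos. The knockout arrays were therefore the higher ones at E8.5 and the lower ones at E12, and none of the 4 groups overlapped another. The knockout difference was 1.03 at E8.5 (SE 0.17, t = 6.17, limma adjusted p = 0.843) and -0.22 at E12 (SE 0.17, adjusted p = 1.00), and these differed by -1.25 (SE 0.24, t = -5.28, adjusted p = 1.00). This 0.843 was the lowest adjusted p of any probe set at E8.5. The Benjamini-Hochberg adjustment can give probe sets with different p the same value, so it does not rank this probe set first. At E8.5 929 probe sets had an absolute t above 3. Over 16 other ways of processing or fitting the data the E8.5 difference ranged from 0.79 to 1.15 and was never called, with adjusted p between 0.0610 and 1.00. The other 5 probe sets of the gene varied differently: their correlation with it over the 8 arrays ran from -0.60 to 0.59. At E12 it lay below the array median on all 4 arrays.

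The same probe set gave the stage differences with the lowest adjusted p among the members. Between E8.5 and E12 it fell by 2.02 in knockout embryos (SE 0.17, limma adjusted p = 0.00130) and by 0.77 in wild-type embryos (SE 0.17, adjusted p = 0.0175). The fall in knockout embryos was called in all 16 alternatives, between -2.23 and -1.40. In wild-type embryos it was called in 12 of 16, and the call was lost without E12 wild type replicate 1 (-0.79, adjusted p = 0.0668) or replicate 2 (-0.76, adjusted p = 0.0510), with array weights (adjusted p = 0.0721) and with each genotype fitted alone (adjusted p = 0.0962). The brightest probe set had the opposite sign, at 0.35 in knockout embryos (95% interval -0.32 to 1.01) and 0.67 in wild-type embryos (0.00 to 1.33), and neither was called. Without E12 wild type replicate 2 the wild-type value was 1.00 and was called (adjusted p = 0.0475). Of the remaining 4, 1452530_a_at was higher at E12 in both genotypes by 0.24 and 0.49 (knockout and wild type) with no overlap, and was not called. Without E8.5 wild type replicate 1 its wild-type difference was 0.66 and was called (adjusted p = 0.0476). Probe set 1427650_a_at read 5.73 and 5.90 in E8.5 knockout embryos against 5.91 and 5.57 in wild-type embryos, and 5.61 and 5.68 in E12 knockout embryos against 5.86 and 5.33 in wild-type embryos, so that genotypes overlapped at both stages. Its stage differences were -0.17 in knockout embryos and -0.14 in wild-type embryos, and neither was called in the fit or in any of the 16 alternatives. The dim probe sets 1440878_at and 1422865_at read 4.92 and 4.99 in E8.5 knockout replicate 2 and 3.71 to 4.25 on the other 7 arrays. They correlated with each other at r = 0.90, with that array the highest for both. Without E8.5 knockout replicate 1, which leaves only that array in its group, the knockout stage difference of 1422865_at was -1.18 and was called (adjusted p = 0.0442).

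**Figure D2:**
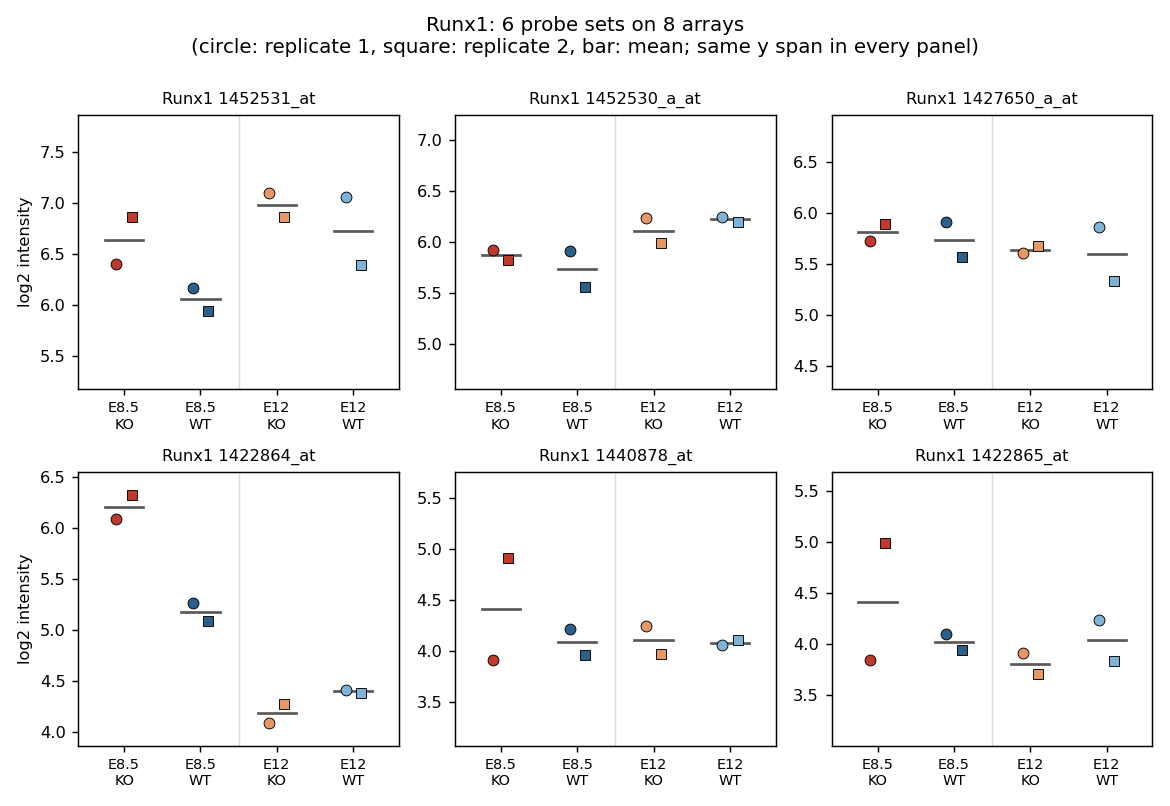
Log2 intensity (y axis) of the 6 Runx1 probe sets on each array, in knockout (KO) and wild-type (WT) embryos at E8.5 and E12 (x axis), with a circle for replicate 1, a square for replicate 2 and a bar for the mean. 1422864_at separates all 4 groups, from 6.09 and 6.33 in E8.5 knockout embryos down to 4.09 and 4.27 in E12 knockout embryos, and the other panels do not share this order.

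Runx3 was dim, and neither of its probe sets was called between the genotypes. Probe set 1421467_at read 4.69 and 4.91 in E8.5 knockout embryos against 4.77 and 4.67 in wild-type embryos, and 5.12 and 5.17 in E12 knockout embryos against 5.49 and 4.87 in wild-type embryos. The groups overlapped at both stages, with differences of 0.07 at E8.5 (95% interval -0.48 to 0.62) and -0.04 at E12 (-0.59 to 0.51). The second probe set, 1440275_at, which was below the array median on all 8 arrays, read 3.99 and 3.64 in both genotypes at E8.5, and 3.96 and 3.96 in E12 knockout embryos against 4.39 and 4.04 in wild-type embryos. At E12 its knockout arrays were thus below its wild-type arrays, by -0.26 (95% interval -0.78 to 0.26). In both genotypes the means of both probe sets were higher at E12 than at E8.5, by 0.14 to 0.46, and none of these 4 differences was called. Without E12 wild type replicate 2 the wild-type difference of 1421467_at was 0.77 and was called (adjusted p = 0.0371).

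Cbfb, the shared partner of all RUNX proteins, read 10.68 and 10.61 in E8.5 knockout embryos against 10.62 and 9.90 in wild-type embryos, and 9.88 and 10.17 in E12 knockout embryos against 9.50 and 10.34 in wild-type embryos. At E8.5 wild type replicate 2 stood below the other 3 arrays, and at E12 the wild-type arrays lay on either side of the knockout arrays. The knockout difference was 0.38 at E8.5 (95% interval -0.44 to 1.21) and 0.11 at E12 (-0.72 to 0.93), and neither passed the test. From E8.5 to E12 the means differed by -0.61 in knockout embryos (adjusted p = 0.239) and by -0.34 in wild-type embryos (adjusted p = 0.507). The sign of these stage differences depended on the scaling: after quantile normalization over the 8 arrays they were 0.54 and 0.84, and the wild-type value was then called (adjusted p = 0.0486). No direction of Cbfb between the stages can be given from these data.

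Runx1t1, a corepressor gene known for its expression in the developing brain, had the widest range among the members. Its brightest probe set, 1437784_at, read 5.16 and 5.75 in E8.5 knockout embryos against 3.77 and 5.90 in wild-type embryos, and 7.25 and 7.20 in E12 knockout embryos against 6.46 and 7.22 in wild-type embryos. Genotypes overlapped at both stages, and all E12 arrays were above all E8.5 arrays. The E12 minus E8.5 difference was 1.77 in knockout embryos (SE 0.66, limma adjusted p = 0.0969) and 2.01 in wild-type embryos (SE 0.66, adjusted p = 0.0656), so neither was called. Each was called in 4 of 16 alternatives, over which the difference ranged from 1.46 to 2.07 in knockout embryos and from 0.94 to 3.07 in wild-type embryos. For knockout embryos these included the fits without either E8.5 wild-type array, which is not in that comparison. The difference stayed at 1.77 there, and only the estimate of spread that all groups share changed. Those 2 wild-type arrays differed by 2.13 for this probe set, so such a call is no further evidence on the stage difference. Without E8.5 wild type replicate 2 the wild-type difference was 3.07. Under quantile normalization and under centring on array medians the sign stayed positive in both genotypes.

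Of the 6 Runx1t1 probe sets 5 varied alike over the 8 arrays, with pairwise r between 0.62 and 0.98, and the sixth, 1443788_at, stayed between 2.86 and 3.10. In all of those 5, E8.5 wild type replicate 1 gave the lowest value of the 8 arrays, for example 3.23 against 6.36 in replicate 2 for 1444615_x_at, whose suffix marks probes that may also hybridise to other transcripts. This is the array with the high trophoblast mean, and its neural marker mean was 4.54, against 4.99 to 5.03 in the other E8.5 arrays. At E12 the lowest value of the 5 probe sets was likewise in wild type replicate 1, where the neural marker mean was 6.93, against 7.54 to 7.70 in the other E12 arrays. A sign of RNA quality differed between replicates too. The 3′ minus 5′ log2 intensity of the actin control probe sets was 1.56 and 2.50 in E8.5 knockout replicates 1 and 2 and 1.48 and 2.61 in the wild-type ones, and knockout replicate 1 was likewise below replicate 2 in 4 of the 5 probe sets. At E12 the actin value was 1.69 and 1.45 in knockout embryos and 1.84 and 1.43 in wild-type embryos. The part of tissue composition or RNA quality in these values was not tested. Knockout differences of the 6 probe sets were all positive, from 0.02 to 1.03 at E8.5 and from 0.02 to 0.74 at E12, with none called, but this count depended on single arrays. Without E8.5 wild type replicate 1 the E8.5 differences ran from -0.55 to 0.20 with 1 of 6 positive, and without E12 wild type replicate 1 the E12 differences ran from -0.51 to 0.01 with 1 of 6 positive. Without E8.5 knockout replicate 2, 3 of 6 were positive at E8.5. Without E8.5 wild type replicate 2, which leaves only the low array, the E8.5 difference of 1444615_x_at was 2.60 and was called (adjusted p = 0.0205), and over the 16 alternatives it ran from -0.53 to 2.60.

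**Figure D3:**
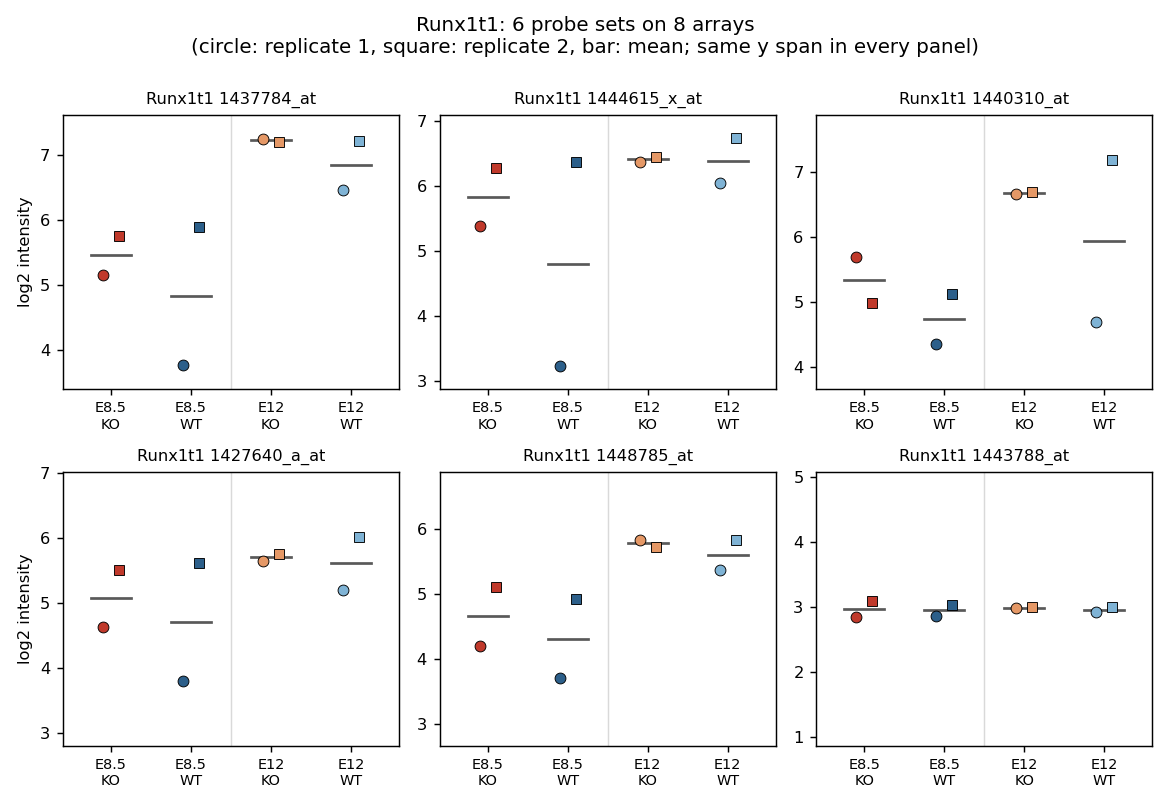
Log2 intensity (y axis) of the 6 Runx1t1 probe sets in knockout (KO) and wild-type (WT) embryos at E8.5 and E12 (x axis), with a circle for replicate 1, a square for replicate 2 and a bar for the mean. E8.5 wild type replicate 1 is the lowest point in 5 of the 6 panels, and 1443788_at stays between 2.86 and 3.10.

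Cbfa2t2, a corepressor of the same family that is broadly expressed, gave different pictures in its 3 probe sets. The brightest, 1434757_at, read 7.81 and 7.89 in E8.5 knockout embryos against 8.05 and 7.89 in wild-type embryos, and 7.84 and 7.88 in E12 knockout embryos against 7.58 and 7.97 in wild-type embryos. The knockout arrays were just below the wild-type arrays at E8.5 and between them at E12, with differences of -0.12 at E8.5 (95% interval -0.55 to 0.32) and 0.09 at E12 (-0.35 to 0.53). Its stage differences were 0.01 in knockout embryos and -0.19 in wild-type embryos, neither called, and they depended on the scaling. With median centring they were -0.20 and -0.39. After quantile normalization they were 0.61 and 0.47, and the knockout value was then called (limma adjusted p = 0.0399). The second, 1456416_at, read 5.91 and 5.71 in E8.5 knockout embryos against 6.27 and 5.86 in wild-type embryos, and 7.29 and 6.92 in E12 knockout embryos against 7.60 and 6.52 in wild-type embryos. All E12 arrays were above all E8.5 arrays for this probe set. It rose from E8.5 to E12 by 1.30 in knockout embryos (SE 0.37, limma adjusted p = 0.0446), while the wild-type difference was 1.00 (SE 0.37, adjusted p = 0.0900). The knockout call was made in 9 of 16 alternatives. It was lost with quantile normalization, median centring or a pseudocount of 16, and on leaving out any single knockout array, when the difference lay between 1.11 and 1.48. The wild-type difference was called in 2 of 16, with the replicate block and without E12 wild type replicate 2 (1.54, adjusted p = 0.0169). These 2 probe sets correlated at r = -0.54 over the arrays. The third, 1441615_at, read 5.95 and 5.25 in E8.5 knockout embryos against 5.47 and 5.19 in wild-type embryos, and 5.94 and 6.01 in E12 knockout embryos against 5.57 and 6.10 in wild-type embryos. Genotypes overlapped at both stages, with knockout differences of 0.27 at E8.5 (95% interval -0.42 to 0.96) and 0.14 at E12 (-0.55 to 0.84). Its stage differences were 0.38 in knockout embryos and 0.50 in wild-type embryos, and none of the 4 was called in any alternative.

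Cbfa2t3, which encodes the family member found in blood cell complexes with GATA1 and TAL1, was measured by 4 probe sets. In one of them, 1418582_at, the knockout arrays were below the wild-type arrays at both stages: 5.38 and 5.43 in E8.5 knockout embryos against 5.56 and 5.81 in wild-type embryos, and 4.76 and 4.58 in E12 knockout embryos against 5.38 and 4.83 in wild-type embryos. The differences were -0.28 at E8.5 (95% interval -0.81 to 0.25) and -0.43 at E12 (-0.96 to 0.10), and neither was called. Over the 16 alternatives the difference ran from -0.40 to -0.16 at E8.5 and from -0.70 to -0.15 at E12. Its sign could not change on leaving out an array, because the genotypes did not overlap, so the constant sign adds no support. Between E8.5 and E12 this probe set differed by -0.73 in knockout embryos (adjusted p = 0.0539) and by -0.58 in wild-type embryos (adjusted p = 0.0975), neither of them called. In knockout embryos it was called in 8 of 16 alternatives. Among them were quantile normalization (-0.93, limma adjusted p = 0.0272), median centring (-0.94, adjusted p = 0.0200), array weights (adjusted p = 0.00878) and each genotype fitted alone (adjusted p = 0.00916). The others left out a single wild-type array, which is not in that comparison. The difference stayed at -0.73 there, and only the estimate of spread that all groups share changed. In wild-type embryos it was called in 2 of 16, with median centring (-0.78, adjusted p = 0.0349) and without E12 wild type replicate 1 (-0.86, adjusted p = 0.0488). The brightest of the 4, 1440964_s_at, read 5.20 and 5.39 in E8.5 knockout embryos against 5.53 and 5.64 in wild-type embryos, and 5.42 and 5.38 in E12 knockout embryos against 5.72 and 5.28 in wild-type embryos. It was lower in knockout at E8.5 with no overlap, by -0.29 (95% interval -0.76 to 0.17), and overlapped at E12. The other 2 probe sets had knockout differences of 0.05 and -0.27 (E8.5 and E12) for 1438705_at and 0.15 and 0.28 for 1440963_at.

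**Figure D4:**
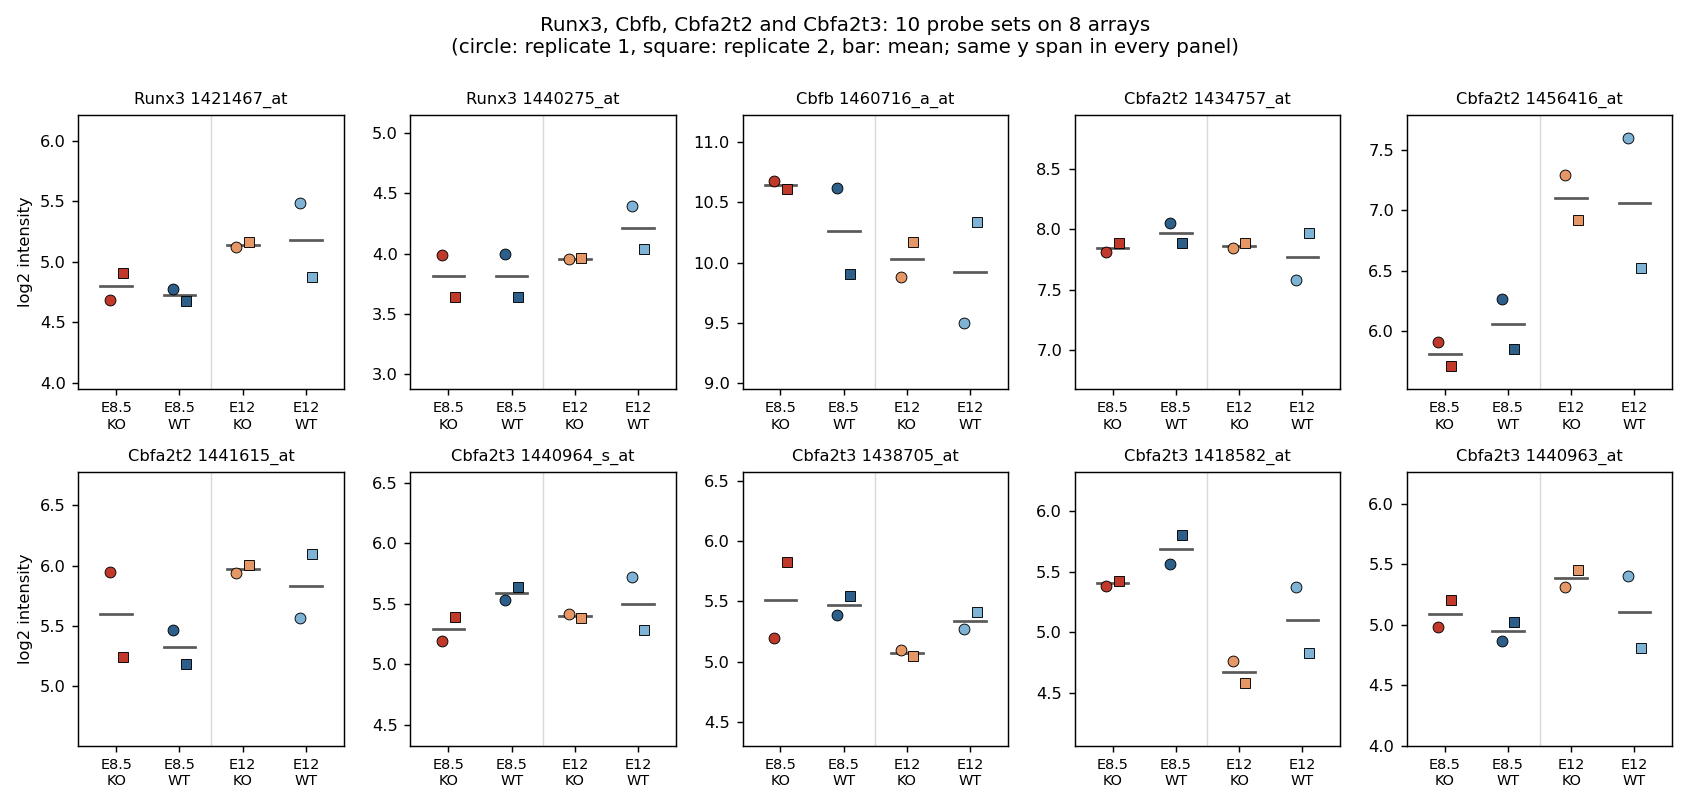
Log2 intensity (y axis) of the 10 probe sets of Runx3, Cbfb, Cbfa2t2 and Cbfa2t3 in knockout (KO) and wild-type (WT) embryos at E8.5 and E12 (x axis), with a circle for replicate 1, a square for replicate 2 and a bar for the mean. Cbfa2t2 1456416_at is higher at E12 on all arrays, and Cbfa2t3 1418582_at is lower in knockout at both stages.

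Few members were called between the stages. In knockout embryos 2 of 22 members were called between E12 and E8.5 (9.09%), against 25.6% of all probe sets, and in wild-type embryos 1 of 22 (4.55%) against 27.8%, and the shares were not tested against each other. The called ones were Runx1 1422864_at in both genotypes and Cbfa2t2 1456416_at in knockout embryos. With an absolute t above 3 the counts were 3 in knockout embryos (30.1% of all probe sets), the third being Cbfa2t3 1418582_at, and 2 in wild-type embryos (31.7%), the second being Runx1t1 1437784_at. The E12 arrays did not overlap the E8.5 arrays for 15 of 22 members in knockout embryos (74.7% of all probe sets) and for 10 of 22 in wild-type embryos (61.4%). The sign was the same under the deposited scaling, quantile normalization and median centring for 17 of 22 probe sets in each genotype, 11 of them higher and 6 lower at E12. Among probe sets called between the stages, 45.1% in knockout embryos and 43.6% in wild-type embryos were higher at E12 as deposited, 52.5% and 53.8% after quantile normalization, and 28.3% and 29.5% after median centring, which moved the median difference of all probe sets to -0.18 in knockout embryos and -0.20 in wild-type embryos. Relative to that shift the fall of Runx1 1422864_at under centring, -2.23 in knockout embryos and -0.97 in wild-type embryos, remained larger.

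**Figure D5:**
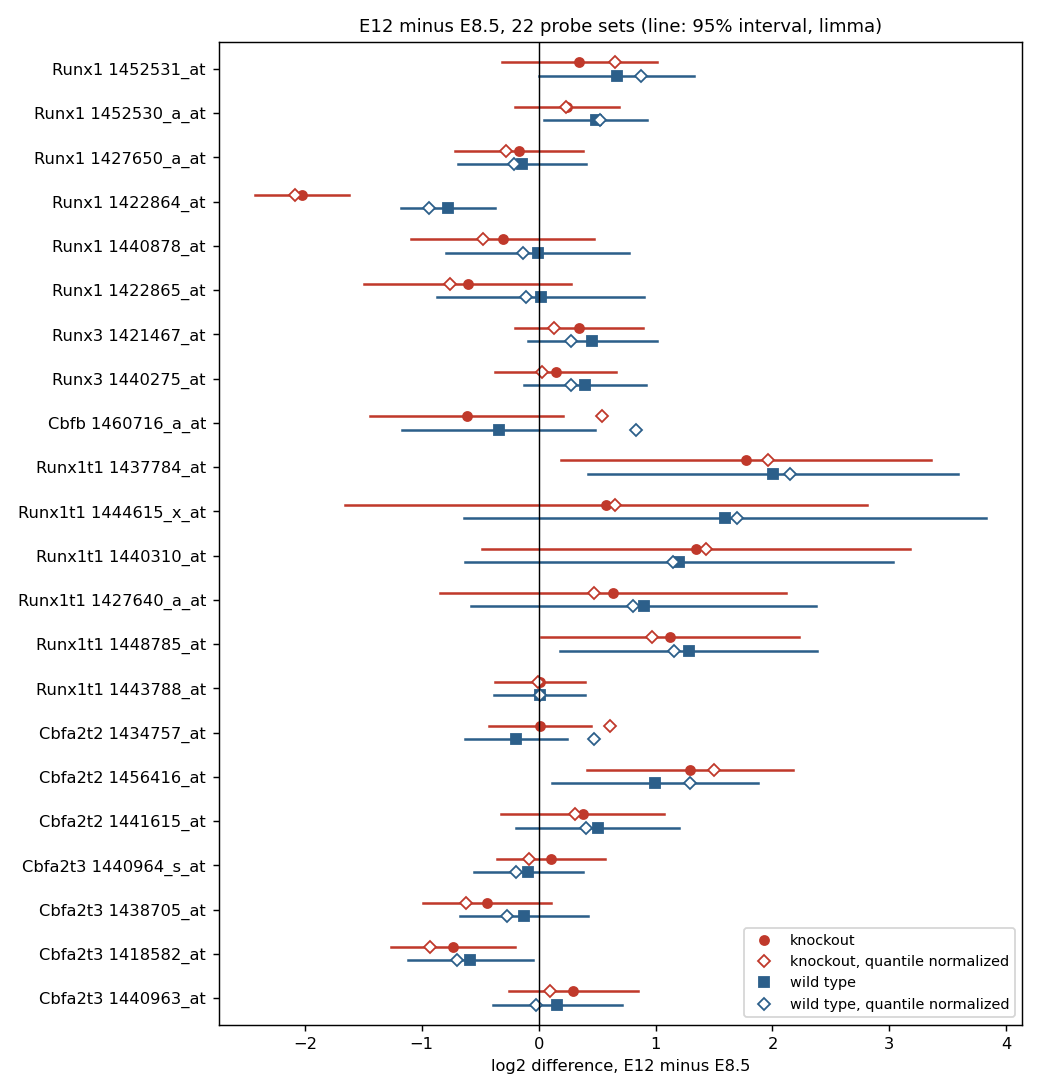
Difference between E12 and E8.5 in log2 intensity (x axis) for each of the 22 probe sets (y axis), with circles for knockout embryos, squares for wild-type embryos, lines for the 95% interval from limma and open diamonds for the same difference after quantile normalization. For Cbfb the diamonds lie at 0.54 and 0.84, on the other side of 0 from the points at -0.61 and -0.34.

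Genes known to act with the RUNX proteins were counted by their brightest probe sets. Among 22 DNA-binding partners of RUNX1 in blood cells, 0 were called at E12 (0.0275% of 18193 genes were called lower) and 4 were lower in knockout embryos with a t below -3 (0.731% of all genes). The list had a median difference of -0.29, against -0.01 over all genes, and 18 of 22 were on the lower side (47.5% of all probe sets were). The largest t belonged to Gata1, the factor of red cells and megakaryocytes, with means of 6.53 in E12 knockout embryos and 8.07 in wild-type embryos (difference -1.54, SE 0.23, adjusted p = 0.699), and to Gfi1b, a repressor of the same lineages, with means of 5.37 and 6.64 (knockout and wild type, difference -1.27, adjusted p = 1.00). Markers of some blood cells were lower in the same arrays: 9 of 9 megakaryocyte and platelet markers had a negative difference with 3 called, and 9 of 10 macrophage and granulocyte markers with 1 called. For red-cell markers it was 6 of 9 with 0 called, where 47.5% of all probe sets had a negative difference. The mean of the red-cell markers was 9.54 and 9.58 in E12 knockout embryos against 9.69 and 10.49 in wild-type embryos, so that wild type replicate 1 was close to the knockout arrays. The part of blood cell markers in the partner list was not tested. At E8.5 the partner list split evenly, 11 higher and 11 lower, with a median of -0.02. Of 16 coactivators and modifying enzymes of RUNX proteins 0 were called at either stage, and the 1 with an absolute t above 3 was the acetyltransferase gene Kat6b at E8.5 (1.26% of all genes had a t below -3), with means of 5.67 in E8.5 knockout embryos and 6.52 in wild-type embryos (difference -0.84, adjusted p = 0.990). Of 17 corepressors and partners 0 were called and 0 had an absolute t above 3 at either stage, with medians of 0.08 at E8.5 and -0.05 at E12.

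The list of 23 published RUNX1 targets holds genes the study named from these same embryos and is therefore not independent. At E12, 1 of them was called lower (0.0275% of all genes) and 7 had a t below -3 (0.731% of all genes). The median was -0.34, against -0.01 over all genes. The called gene was Pf4, a platelet chemokine, with means of 4.84 in E12 knockout embryos and 10.55 in wild-type embryos (difference -5.71, SE 0.20, limma adjusted p = 0.00176). The blood markers above are in part the same genes. Pf4, Itga2b and Gp9 stand in both the target list and the megakaryocyte and platelet list. Csf1r and Mpo stand in both the target list and the macrophage and granulocyte list. The target and partner lists share Myb, Spi1, Gfi1, Gfi1b and Cebpa. None of the 23 was called at E8.5, where the median was -0.09. The genes tied to the other RUNX proteins gave no called knockout difference at either stage, among 17 of bone and cartilage (medians 0.04 at E8.5 and -0.01 at E12) and 11 of sensory ganglia (-0.04 and 0.10), and none had an absolute t above 3. Between the stages 8 of the 11 sensory ganglion genes were called higher at E12 in each genotype (13.8% of all genes were called higher in knockout embryos and 14.8% in wild-type embryos). The difference was positive for 11 of 11 in knockout embryos and for 10 of 11 in wild-type embryos (52.1% and 49.5% of all probe sets). Of 10 neural markers 8 were called higher as well in each genotype, and their part in the ganglion list was not tested. Neurog1, which starts sensory neuron formation, rose by 2.58 in knockout embryos and 2.53 in wild-type embryos, and Ntrk2, a neurotrophin receptor gene, by 2.58 and 2.61 (adjusted p between 0.000849 and 0.00137). Of the 17 corepressors and partners 3 were called lower in knockout embryos and 5 in wild-type embryos (18.3% and 19.6% of all genes). In each genotype 2 were called higher (13.8% and 14.8% of all genes). The difference was negative for 12 in knockout embryos and for 11 in wild-type embryos (47.9% and 50.5% of all probe sets). These counts were not tested against the shares. The histone deacetylase gene Hdac1 fell by 1.69 and 1.42 (knockout and wild type, limma adjusted p = 0.00130 and 0.00194). Rcor1, which encodes a scaffold of the histone demethylase complex, fell by 1.43 and 1.71 (adjusted p = 0.00978 and 0.00536). Atxn1 rose by 1.66 and 1.64 (adjusted p = 0.00404 and 0.00393). All stage differences of list genes are given on the deposited scaling only. Under quantile normalization the stage difference of Cbfb changed sign, and the part of scaling in the list genes was not tested.

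For each member's brightest probe set the 3 genes with the most similar pattern over the 8 arrays were sought among 7698 candidates. The points share 2 stages and one scaling, and r is given as a description. Runx1t1 was closest to Tfdp2, a dimerization partner of the E2F cell cycle factors (r = 0.996), Lpin2 (r = 0.990) and Prrx1, a homeobox gene of limb and face mesenchyme (r = 0.988). Cbfb was closest to Tmem123 (r = 0.984), Polr2m (r = 0.982) and the chaperone gene Dnajb6 (r = 0.978). Runx3 was closest to Pip5k1b, a phosphoinositide kinase gene (r = 0.962), Ggt5 (r = 0.955) and C86187 (r = 0.955). Runx1 was closest to the lymphotoxin receptor gene Ltbr (r = 0.945), followed by Gm20324 (r = 0.917) and 4930524J08Rik (r = 0.896). Cbfa2t2 was closest to Gpcpd1 (r = 0.936) and Cbfa2t3 to Bsdc1 (r = 0.892). Among the members themselves Runx1 and Runx3 had the highest r (0.83). The most negative r were those of Runx3 with Cbfb (-0.70), Runx3 with Cbfa2t2 (-0.70) and Cbfb with Cbfa2t3 (-0.69). These r are on the deposited scaling, and the stage difference of Cbfb changed sign under quantile normalization.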

How the data were processed

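Total RNA of 8 samples was extracted with Trizol, amplified and hybridised to Affymetrix mouse arrays. The authors normalized and summarized the probes by Robust Multi-array Analysis and deposited the result as linear intensities. Joint normalization of all arrays is not stated. Replicates are described as biological, the p-values reflect only how far these replicates differ, and precision is limited by their number. Intensities were converted to log2 without a pseudocount. Of 45101 probe sets 64 controls were left out and none was filtered. Gene symbols were those of the platform annotation brought up to date with RefSeq: 34945 probe sets had 1 symbol, 932 had several and 9160 had no gene named here. All 8 arrays were fitted together in limma 3.58.1 (R 4.3.3) with 1 mean per group, and a probe set was called when its p, adjusted by Benjamini-Hochberg across 45037 probe sets, was below 0.05. The fit was tested on simulated data. A gene stands by its brightest probe set, the rule for named genes took list genes called (up to 4) or the 2 with the highest absolute t, and those named here are a selection. The members and lists were chosen with earlier results of these data known. Alternatives were quantile normalization, median centring, a pseudocount of 16, a filter on dim probe sets, a trended and robust variance, array weights, a replicate block, each stage or genotype alone, and leaving out each array.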

Additional observations from a re-analysis of the deposited data

Results flagged for a closer look

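Among the members a single probe set had knockout arrays on opposite sides of the wild-type arrays at the 2 stages. Other member probe sets changed sign as well, but with overlap of the genotypes at E8.5, at E12 or at both. For Runx1 1422864_at both knockout arrays were above both wild-type arrays at E8.5 (6.09 and 6.33 against 5.26 and 5.09) and below both at E12 (4.09 and 4.27 against 4.41 and 4.39). The E12 difference was -0.22 (95% interval -0.62 to 0.18), with all values below the array median. The difference of the knockout effect, E12 minus E8.5, was -1.25 (limma adjusted p = 1.00), and over the alternatives it ran from -1.37 to -0.91 with adjusted p between 0.125 and 1.00. Of all probe sets, 2.76% had knockout arrays on opposite sides of the wild-type arrays at the 2 stages, as had 1 of the 22 member probe sets. With 2 arrays per group, no search for single arrays far from the others was made.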

How the results depend on the processing

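Over the alternatives, the 22 probe sets and 6 comparisons gave 2044 values, of which 1993 kept their side of the threshold, 39 were newly called, 11 lost a call and 1 reversed. Nearly all that kept their side were uncalled in both fits. The main fit called only Runx1 1422864_at between the stages in both genotypes and Cbfa2t2 1456416_at in knockout embryos. In the alternatives these were called in 16 of 16 (Runx1, knockout), 12 of 16 (Runx1, wild type) and 9 of 16 (Cbfa2t2). Of the 1993, 136 changed sign without being called in either fit, 116 of them on leaving out an array. The reversed value was Cbfb in wild-type embryos between E12 and E8.5, 0.84 after quantile normalization against -0.34, and the cause was not tested.

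With an absolute t above 3 the count of member probe sets was 1 at E8.5, 1 for the average, 1 for the difference between stages and 2 for the wild-type stage comparison, against 0, 0, 0 and 1. The knockout comparisons otherwise stayed at 0, except for 1 call at E8.5 without wild type replicate 2 (leave-one-out range 0 to 1). The knockout stage count, 2 in the main fit, was 1 with a pseudocount of 16, 5 with array weights, 7 with each genotype fitted alone, and 1 to 5 on leaving out an array. The wild-type stage count, 1 in the main fit, was 2 with quantile normalization, median centring, the filter on dim probe sets or the trended and robust variance, 4 with the replicate block, 0 with array weights or with each genotype fitted alone, and 1 to 5 on leaving out an array.

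The labels do not tie the replicate numbers to a litter or batch. Same-numbered deviations of knockout and wild-type arrays correlated at 0.37 at E8.5 and 0.17 at E12, and those of the other pairs of groups between -0.12 and 0.08. The actin 3′ minus 5′ value was higher in replicate 2 at E8.5 and in replicate 1 at E12, in both genotypes. The GAPDH value was higher in replicate 2 in all 4 groups. A shared effect of the replicate number is therefore possible. With the replicate block the 4 knockout comparisons had 0 called members and the knockout stage comparison 2.

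Over all probe sets the calls depended on the arrays kept. E8.5 knockout calls were 0, but 1942 without E8.5 wild type replicate 2 and 3 without replicate 1. E12 knockout calls were 6 and ran from 0 to 12. The average had 1 (0 to 1128) and the difference between stages 2 (0 to 718). The stage comparisons had 11539 calls in knockout embryos (2323 to 19889) and 12525 in wild-type embryos (2061 to 14204). The spread between replicates was unequal: the SD of their difference was 0.403 in E8.5 knockout, 0.833 in E8.5 wild type, 0.227 in E12 knockout and 0.490 in E12 wild type. Dim probe sets have an uncertain level, since no detection calls were used, and 3 of the 22 lay below the array median on all arrays.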
